A study of Mus musculus with 8 samples.

Results

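Shear-responsive Krüppel-like factor (KLF) genes and the endothelial products linked to them were followed in mG+ cells, as a set of 6 genes: *Klf2*, *Klf4*, *Klf6*, *Klf10*, *Nos3* and *Thbd*. The genes were chosen by symbol from the deposited read count table, where all 6 were found among 54532 genes, and all 6 passed the filter of 10 counts in the mean over libraries, as did 16971 genes in all. The mice were 8 months old and carried *Tie2e-cre* and the *mTmG* reporter in every group, so that cells with a history of Cre activity, and only those, are marked by membrane GFP (mG). EC-*Tert*-KO mice (labelled TERTfl/fl) and WT mice (labelled TERT+/+) therefore differ in the floxed *Tert* alleles and share the Cre and the reporter. GFP+ cells came from subcutaneous adipose tissue (SAT) of mice on chow, SAT of mice on a high-fat diet (HFD), visceral adipose tissue (VAT) on chow and skeletal muscle on chow, with 1 KO and 1 WT library each, 8 libraries in 4 pairs. *Tie2* is a receptor gene of endothelial cells (EC) that is also active in some blood cells and their precursors, which limits GFP as a mark of EC alone. The sources used here do not state if a library holds 1 mouse or more.

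In EC, steady laminar flow is sensed at the cell junctions and the membrane and signals through a kinase cascade ending in MEF2 transcription factors, which switch on *Klf2* and *Klf4*. These zinc finger factors bind CACCC and GC-rich boxes, raise genes that keep vessels open and blood fluid, and lower genes of adhesion and clotting. *Nos3* encodes endothelial nitric oxide synthase, which relaxes vessels, and *Thbd* encodes thrombomodulin, the receptor on EC that turns thrombin toward protein C activation, and both are well known as genes that KLF2 raises. None of the KLF genes is restricted to EC: *Klf2* keeps T and B cells quiescent and recirculating, and *Klf4* and *Klf6* act in monocytes and macrophages, which also make thrombomodulin. *Klf6* and *Klf10* are in addition fast-responding genes, *Klf10* as an early target of TGF-β.

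On GRCm38, *Klf2* (ENSMUSG00000055148) lies on the plus strand at chr8:72319033-72321656 and *Klf6* (ENSMUSG00000000078) on the plus strand at chr13:5861482-5870394. *Klf4* (ENSMUSG00000003032) lies on the minus strand at chr4:55527143-55532466, *Klf10* (ENSMUSG00000037465) on the minus strand at chr15:38291463-38300706 and *Thbd* (ENSMUSG00000074743) on the minus strand at chr2:148404466-148408188. *Nos3* (ENSMUSG00000028978) lies on the plus strand at chr5:24364810-24384474. All 6 had these coordinates in GENCODE M21 as well. *Thbd* has 1 exon there and *Nos3* up to 26 in a transcript, and *Nos3* is the only one of the 6 that overlaps other annotated genes, *Atg9b* and *Gm15587*, both on the opposite strand. Since the use of strand in counting is not stated, reads in the overlap cannot be assigned with certainty; *Atg9b* had 6 to 68 counts and *Gm15587* 0 to 27 in a library.

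The 250 bases before the RefSeq start (GRCm38.p6) are shown for *Klf2*, *Klf4* and *Klf6*, the 3 KLF genes of highest level, because *Klf2* was ordered across the libraries unlike the other pair. Windows of *Klf10*, *Nos3* and *Thbd* are not shown. Capitals mark matches, on either strand, to CACCC, which KLF factors bind, to GGGCGG, the GC box of the SP and KLF families, and to the MEF2 consensus. A match on the minus strand stands as its reverse complement. The windows are chr8:72318812-72319061 for *Klf2*, chr4:55532476-55532725 (minus strand) for *Klf4* and chr13:5861239-5861488 for *Klf6*; the last 29 bases of the first and the last 7 of the third lie inside the gene models of the count table.
Klf2: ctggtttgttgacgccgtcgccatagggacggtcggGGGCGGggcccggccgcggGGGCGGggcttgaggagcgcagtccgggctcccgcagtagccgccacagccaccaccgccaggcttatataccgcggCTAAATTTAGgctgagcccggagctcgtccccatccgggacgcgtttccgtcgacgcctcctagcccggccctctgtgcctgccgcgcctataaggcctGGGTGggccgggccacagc
Klf4: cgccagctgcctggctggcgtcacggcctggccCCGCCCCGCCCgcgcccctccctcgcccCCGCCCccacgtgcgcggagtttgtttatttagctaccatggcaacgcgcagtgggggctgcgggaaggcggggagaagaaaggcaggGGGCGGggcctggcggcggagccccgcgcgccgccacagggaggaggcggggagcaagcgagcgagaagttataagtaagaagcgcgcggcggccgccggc
Klf6: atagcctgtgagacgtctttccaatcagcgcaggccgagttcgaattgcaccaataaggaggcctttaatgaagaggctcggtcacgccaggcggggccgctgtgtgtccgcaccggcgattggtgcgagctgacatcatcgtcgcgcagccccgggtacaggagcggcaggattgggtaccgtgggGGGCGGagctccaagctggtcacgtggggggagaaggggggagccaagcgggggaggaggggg

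The *Klf2* window held 1 match to the MEF2 consensus, starting 118 bases before the start site, and 2.92% of 32851 windows of the same length held one. The *Klf4* and *Klf6* windows held none. GGGCGG was found 2 times before *Klf2*, 4 times before *Klf4*, where 2 of the matches overlap, and 1 time before *Klf6*, and in 32.7% of all windows. CACCC was found 1 time, before *Klf2*, 19 bases from the start site, and in 52% of all windows. The CArG box (1.47% of windows), TGACGTCA (1.55%), TGANTCA (6.75%) and TATAAA (12.4%) were searched as well and matched none of the 3 windows. A match is a description of the letters, and no match says only that the letters are not in this window.

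The libraries held 6214269 to 18855772 counts. *Tert*, the targeted gene, was counted 70 times in the WT and 11 times in the KO library of SAT on chow, 114 and 0 times for SAT on HFD (at least 72.2-fold lower in KO, against a floor of 3 counts) and 24 and 7 for muscle. In VAT it had 3 counts in the library labelled WT and 9 in the library labelled KO, so that *Tert* does not show the labelled genotype there. All 19 endothelial markers were above 3 counts in every library, but their summed level was 452 to 977 CPM (counts per 1e6 counts, scaled by edgeR's TMM) in SAT and 2708 to 3914 in VAT and muscle. Markers of blood cells were present throughout, with 10 of 10 T cell, 8 of 8 B cell and 12 of 12 macrophage markers above 3 counts in every library. The SAT chow WT library stood apart from the other 7: it had 292 CPM of the nuclear RNA *Malat1*, against 2149 to 5836 in the others. Its summed mural markers were lowest too, at 77.3 CPM against 157 to 785. Its stromal (1210 CPM) and adipocyte (60.8) sums were also lowest, but close to 1264 in muscle WT and 62.2 in SAT HFD KO. Calls by edgeR given below that were lost without the SAT chow WT library are named.

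Compared per length, in TPM (transcript counts divided by gene length and scaled to a fixed sum), *Klf2* was among the most abundant transcripts of these cells. Its level was 429 and 606 TPM in SAT on chow (WT and KO), 1539 and 1341 in SAT on HFD, 553 and 586 in VAT and 611 and 796 in muscle, above 98.6% to 99.6% of the genes that passed the filter. *Klf6* ran from 99.1 to 1057 TPM, *Klf4* from 53.1 to 797 and *Klf10* from 19.7 to 96.1. *Thbd* ran from 10.2 to 273 TPM and *Nos3* from 0.498 to 45.9, so that *Thbd* exceeded *Nos3* in all 8 libraries, by 3.26 to 63.9 times. *Nos3*, the gene of the set that is most closely tied to EC, was the least abundant of the 6 per length in every library.

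Of the 17 *Klf* genes in the table, *Klf2*, *Klf4* and *Klf6* were the first 3 per length in each of the 8 libraries. With *Klf10* they made up 75.9% to 89.3% of the summed *Klf* TPM. *Klf2* led in SAT and in muscle, with 62.8% and 34.9% of the sum in SAT on chow (WT and KO), 60.7% and 61.9% in SAT on HFD, and 33.4% and 38.7% in muscle. In VAT *Klf6* led, with 34.5% and 36.6%, followed by *Klf4* with 27.9% and 26.1%, and *Klf2* came after them with 19.3% and 20.3%. The ratio of *Klf2* to *Klf4* TPM was below 1 in both VAT libraries, 0.693 and 0.778, and above 2 in the other 6, from 2.17 in SAT chow KO to 8.51 in SAT HFD KO. The plot of the composition of *Klf* transcripts shows this change of the leading gene.

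**Figure D1:**
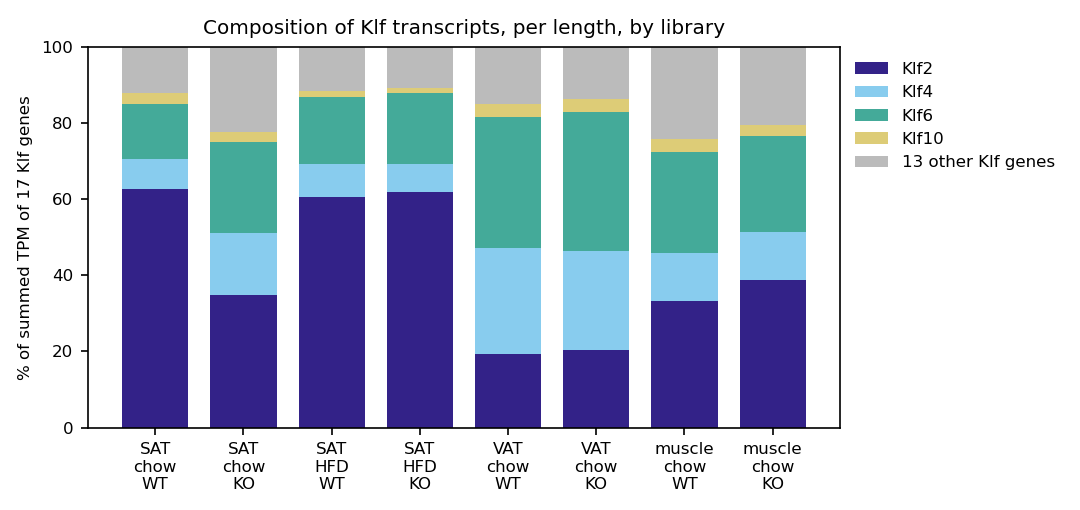
Share of each of 4 *Klf* genes, and of the 13 other *Klf* genes together, in the summed TPM of all 17 *Klf* genes (y axis, percent), for each of the 8 libraries (x axis: tissue, diet and genotype as labelled; 1 bar per library). *Klf2* takes 60.7% to 62.8% in the SAT chow WT and both SAT HFD libraries and 19.3% to 20.3% in the VAT libraries, where *Klf6* and *Klf4* take larger shares.

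Across tissues and diets, *Klf2* was the only one of the 6 genes that was highest in SAT on HFD and lowest in VAT in CPM. On the CPM scale it stood at 894 (WT) and 953 (KO) in SAT on HFD, 505 and 431 in SAT on chow, 401 and 458 in muscle and 324 and 365 in VAT. Both HFD libraries lay above the other 6, both VAT libraries below them, and SAT on chow overlapped with muscle. In TPM, SAT chow WT (429) was the lowest library, below both VAT libraries (553 and 586). In edgeR's quasi-likelihood fit, with a term for genotype, the log2 difference of SAT on HFD over SAT on chow was 0.98 (SE 0.328), with an unadjusted p = 0.0175 and an adjusted p = 0.588, so that *Klf2* did not pass the threshold of 0.05. It was 1.25 without the SAT chow WT library and 0.80 without the SAT chow KO library, not called in either by edgeR, whereas DESeq2 called it with all libraries (1.13, adjusted p = 0.00448). Over all genes the median of this contrast was −0.24.

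*Klf4*, *Klf6*, *Klf10* and *Thbd* were all highest in VAT in CPM. *Klf4*, which shares many targets with *Klf2*, was at 771 and 775 CPM in VAT (libraries labelled WT and KO), 247 and 248 in muscle, 209 and 185 in SAT on HFD and 103 and 328 in SAT on chow. Both VAT libraries lay over 2 times above every other library, and the other 3 conditions overlapped with a neighbour in order, the SAT chow pair spanning all of them. *Klf6* was at 1375 and 1564 CPM in VAT, 756 and 705 in muscle, 613 and 690 in SAT on HFD and 277 and 707 in SAT on chow. The VAT libraries again lay apart, muscle lay above SAT on HFD by less than the VAT pair differed, and the SAT chow WT library was the lowest. *Klf10* was at 124 and 135 CPM in VAT, 97.2 and 78.0 in muscle, 52.5 and 70.1 in SAT on chow and 54.2 and 44.4 in SAT on HFD. Its VAT, muscle and SAT levels did not overlap, and the SAT diets overlapped with each other.

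*Thbd* had 309 and 342 CPM in VAT, 179 and 174 in muscle, 24.1 and 76.0 in SAT on chow and 53.7 and 45.6 in SAT on HFD. VAT lay above muscle and muscle above all SAT libraries, while the SAT diets overlapped. The highest library was 14.2 times the lowest, SAT chow WT. *Nos3* had another order, with 42.5 and 59.1 CPM in muscle, 29.6 and 22.8 in VAT, 5.20 and 12.1 in SAT on chow and 2.26 and 0.792 in SAT on HFD. No 2 conditions overlapped, and the highest library was 74.7 times the lowest. The lowest *Nos3* levels rest on 15 and 10 counts, in SAT on HFD, against 702 and 816 counts in muscle.

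**Figure D2:**
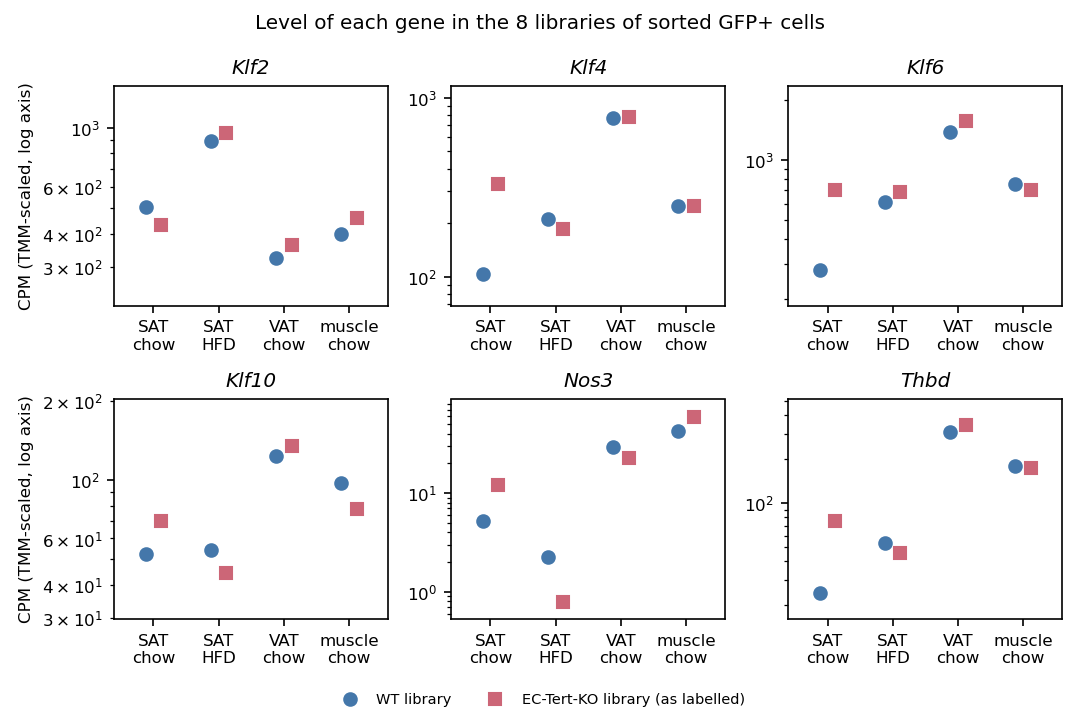
Level of each of the 6 genes (y axes: TMM-scaled CPM, log axis, 1 panel per gene) in each of the 8 libraries, by tissue and diet (x axis); each point is 1 library, circles WT and squares EC-*Tert*-KO as labelled. *Klf2* is highest in SAT on HFD, *Klf4*, *Klf6*, *Klf10* and *Thbd* in VAT, and *Nos3* in muscle, and the SAT chow WT library is the lowest point for *Klf4*, *Klf6* and *Thbd*.

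These differences were tested with edgeR's quasi-likelihood F test and Benjamini-Hochberg adjustment over 16971 genes, in a fit where each tissue and diet has 2 libraries, 1 of each genotype, and 3 residual degrees of freedom are left. For any difference among the 4 conditions, *Nos3* (adjusted p = 0.0133, range of the log2 levels 5.11) and *Thbd* (adjusted p = 0.018, range 2.79) were called, 2 of the 6 genes, beside 7.83% of all genes. *Klf4* (adjusted p = 0.0682), *Klf10* (adjusted p = 0.0797), *Klf2* (adjusted p = 0.0833) and *Klf6* (adjusted p = 0.154) missed the threshold by edgeR. DESeq2's likelihood ratio test called all 6, beside 19.7% of all genes. *Thbd* lost its call by edgeR without either VAT library (adjusted p = 0.0699 without the one labelled WT, 0.0709 without the one labelled KO), while *Nos3* kept it without any 1 library. Without the SAT chow WT library all 6 genes were called, beside 14.8% of all genes, and without the SAT chow KO library all 6, beside 23.2%.

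Between single conditions, *Thbd* was the 1 gene of 6 that edgeR called in VAT over SAT on chow, where 5.05% of all genes were called. It was higher in VAT by 2.79 on the log2 scale (SE 0.493, adjusted p = 0.0214), and without a VAT library it was not called (adjusted p = 0.108 without the one labelled WT and 0.0941 without the one labelled KO). In the same contrast *Klf4* had a log2 difference of 1.94 (adjusted p = 0.071), *Klf6* 1.65 (0.0805), *Klf10* 1.08 (0.0974), *Nos3* 1.61 (0.186) and *Klf2* −0.45 (0.5), by edgeR. Without the SAT chow KO library 5 of 6 genes were called, all but *Klf2*, where 20.5% of all genes were called. Without the SAT chow WT library *Thbd* (2.14) and *Klf4* (1.27) were called, where 4.96% of all genes were, and *Klf6* was at 1.15, *Klf10* at 0.87, *Nos3* at 1.02 and *Klf2* at −0.19. Leaving out 1 library moved *Thbd* between 2.14 and 3.78. In muscle over SAT on chow none of the 6 was called by edgeR, beside 1.26% of all genes. *Nos3* had the largest difference, 2.56 (SE 0.613, adjusted p = 0.108), followed by *Thbd* with 1.91 (SE 0.48, adjusted p = 0.125), by edgeR. Leaving out 1 library moved *Nos3* between 2.03 (without SAT chow WT) and 3.46 (without SAT chow KO), and *Thbd* between 1.26 and 2.89, without the same libraries. All 6 but *Klf2* and *Klf10* were called without the SAT chow KO library, where 10.5% of all genes were, and none without the SAT chow WT library, where 1.68% were.

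None was called in muscle over VAT either, beside 1.93% of all genes by edgeR, and *Klf4* had the largest difference there, −1.64 (SE 0.489, adjusted p = 0.169). *Klf4*, *Klf6* and *Thbd*, 3 of 6 genes, were called when either SAT chow library was left out, where 7.10% (without WT) and 6.91% (without KO) of all genes were called. In SAT on HFD over SAT on chow, edgeR called none of the 6 and 0% of all genes, with 1354 of 16971 genes at an unadjusted p under 0.05, and DESeq2 called 260, *Klf2* among them. *Nos3* was lower on HFD by edgeR, at −2.55 (SE 0.679, unadjusted p = 0.00569, adjusted p = 0.482), and ran from −3.48 without SAT HFD WT to −1.67 without SAT HFD KO, with −3.17 without SAT chow WT. *Klf4* (−0.02), *Klf6* (0.48), *Klf10* (−0.32) and *Thbd* (0.10) had smaller differences and were not called.

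**Figure D3:**
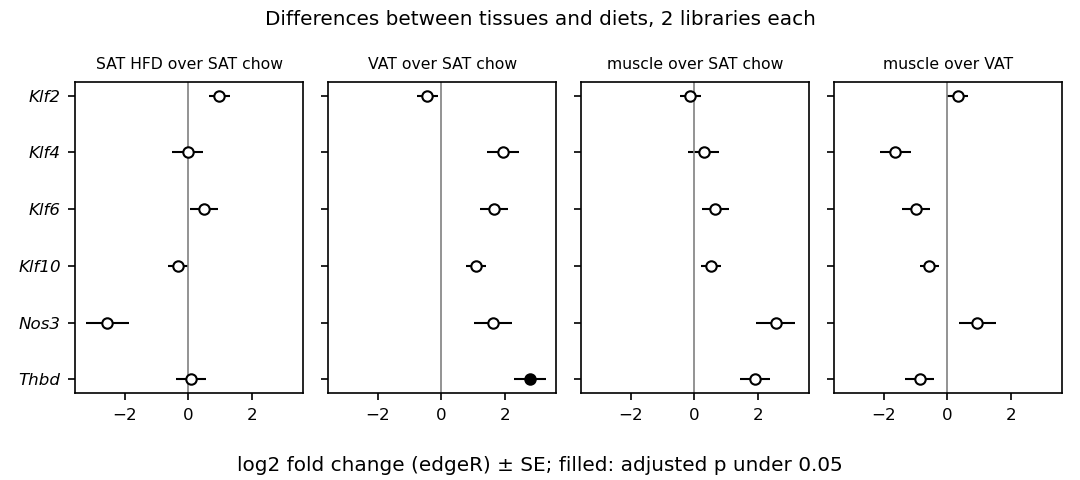
Log2 fold change (x axes) of each of the 6 genes (y axis) in 4 contrasts of tissue and diet, 1 panel each, with 2 libraries per condition; points are edgeR estimates, lines ± 1 SE, and a filled point an adjusted p under 0.05. *Thbd* in VAT over SAT on chow, at 2.79, is the only filled point; *Nos3* is farthest from 0 in SAT on HFD over SAT on chow (−2.55) and in muscle over SAT on chow (2.56).

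The levels ran beside those of other cell types. Summed endothelial markers were 754 and 977 CPM in SAT on chow, 482 and 452 in SAT on HFD, 3592 and 2708 in VAT and 3182 and 3914 in muscle. *Nos3* was ordered like these sums except for VAT WT and muscle WT, which changed places. For 1000 counts of the 19 endothelial markers, a library held 6.89 and 12.4 counts of *Nos3* in SAT on chow, 4.69 and 1.75 in SAT on HFD, 8.23 and 8.43 in VAT and 13.4 and 15.1 in muscle. On this scale muscle and SAT on HFD were still the highest and the lowest for *Nos3*, and the SAT chow KO library lay above both VAT libraries. VAT was not highest on it for *Klf4* (435 and 409 in SAT on HFD, 215 and 286 in VAT). The same held for *Klf6* (1272 and 1527 against 383 and 577) and *Klf10* (112.5 and 98.3 against 34.5 and 49.9). *Thbd* in SAT on HFD (111.6 and 100.9) overlapped with VAT (85.9 and 126.4). In bulk cells, fewer cells of a type and less RNA per cell cannot be told apart.

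Summed macrophage markers were 16003 and 16182 CPM in VAT, the tissue highest in CPM for *Klf4*, *Klf6*, *Klf10* and *Thbd*. They were 5902 and 5540 in muscle, 2137 and 982 in SAT on chow and 814 and 500 in SAT on HFD. *Thbd* in CPM followed this order but for the SAT chow WT library, which had the lowest *Thbd* level and more macrophage transcripts than any other SAT library. Summed T cell markers were 4299 and 2044 CPM in SAT on chow, 2162 and 2518 in SAT on HFD, 352 and 457 in VAT and 796 and 541 in muscle, and B cell markers ran from 185 CPM in VAT WT to 2512 in SAT chow WT. In CPM, *Klf2* was lowest in VAT, where both sums were lowest. Its 2 highest libraries, SAT on HFD, did not have the highest T cell sum. Summed neutrophil markers were 27413 and 31183 CPM in muscle, where *Nos3* was highest, and 79.5 to 1018 in the other 6 libraries, with *Ly6g* at 0 in both SAT HFD libraries, *Mmp8* in the WT and *Cxcr2* in the KO one. In muscle over SAT on chow 10 of 11 neutrophil and 8 of 19 endothelial markers were called higher by edgeR, beside 1.26% of all genes called. Of these markers *Cxcr2*, *Erg* and *Egfl7* were not called without the SAT chow WT library. The part of these cells in the levels was not tested.

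**Figure D4:**
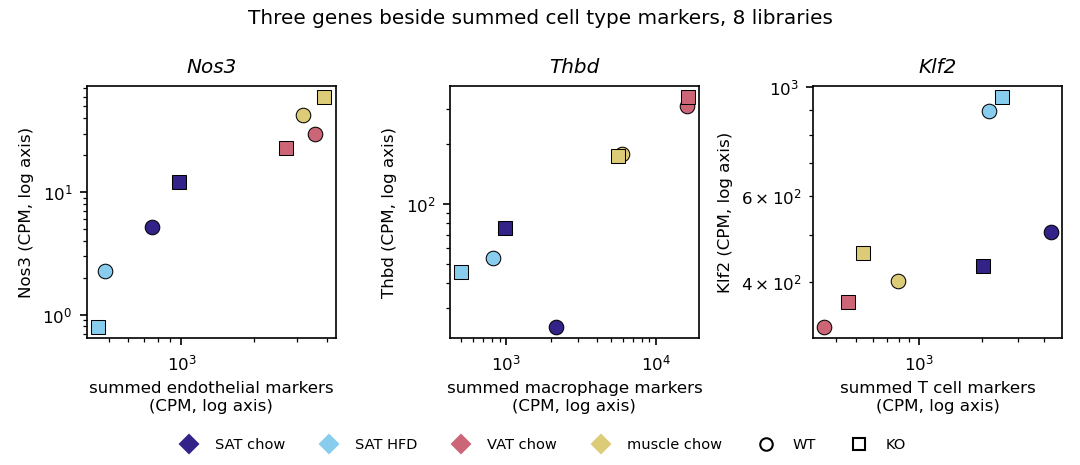
Level of *Nos3*, *Thbd* and *Klf2* (y axes, CPM, log axes) beside the summed endothelial, macrophage and T cell markers of the same library (x axes, CPM, log axes); each point is 1 of the 8 libraries, coloured by tissue and diet, circles WT and squares KO as labelled. *Nos3* is lowest in SAT on HFD, where endothelial markers sum to 482 and 452 CPM, *Thbd* highest in VAT, where macrophage markers sum to 16003 and 16182 CPM, and the SAT chow WT library lies off the others for *Thbd*.

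The effect of EC-*Tert* KO on the 6 genes was read in each pair as the log2 ratio of KO to WT, with a 95% interval that covers counting error only, since there is 1 library per genotype and no replicate check. In SAT on chow, 4 of the 6 genes were over 2-fold higher in KO and none lower, where 26.0% of 16908 genes were over 2-fold higher. *Klf4* had a log2 ratio of 1.67 (1.59 to 1.75), *Thbd* 1.65 (1.49 to 1.82), *Klf6* 1.35 (1.30 to 1.40) and *Nos3* 1.22 (0.85 to 1.60). *Klf10* was 0.42 (0.29 to 0.54), and *Klf2* had the opposite sign, −0.23 (−0.28 to −0.18), which became 0.0032 with library totals and 0.12 with the trend on gene length removed. The median of the 6 was 1.28, beside −0.0044 over all genes tested.

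The higher KLF level in that KO library took in other family members. Of 14 other KLF and SP genes tested in the pair, 8 were over 2-fold higher and none lower, where 26.0% of all genes were higher. The median of the 14 was 1.42, with *Klf13* at 101 CPM in WT and 310 in KO. Immediate early and dissociation genes respond within minutes to cell stress and handling. Of 32 such genes, 12 were over 2-fold higher, beside the 26.0% of all genes, and none lower, with a median of 0.55. *Egr1* was at 261 and 706 CPM and *Atf3* at 46.5 and 235, whereas *Fos* (887 and 890), *Jun* (525 and 563) and *Dusp1* (723 and 605) differed little. In the same pair 13 of 14 stromal markers were over 2-fold higher in KO, with sums of 1210 and 4328 CPM. Over 2-fold lower were 7 of 10 T cell and 6 of 12 macrophage markers, where 19.2% of all genes were. Another 2 of the 12 macrophage markers, *Cd14* (28.3 and 112 CPM) and *Mertk* (5.68 and 12.8), were over 2-fold higher. *Malat1* was at 292 and 5836 CPM. When the libraries were scaled by the summed endothelial markers instead, which moved the median of all genes to −0.37, 2 of the 6 genes stayed beyond 2-fold, *Klf4* (1.29) and *Thbd* (1.28), with *Klf6* at 0.98 and *Nos3* at 0.84. The part of each of these differences in the 4 ratios was not tested.

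In the other 3 pairs the KLF genes and *Thbd* differed little between the libraries. In SAT on HFD, 1 of the 6 genes, *Nos3*, was over 2-fold lower in KO, where 16.6% of 15839 genes were. Its log2 ratio was −1.45 (−2.83 to −0.26), from 15 counts in WT and 10 in KO, so that the interval reaches nearly to 0. The other 5 ran from −0.29 for *Klf10* to 0.17 for *Klf6*, and the sums of the endothelial markers in the pair were 482 and 452 CPM.

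In VAT none of the 6 was beyond 2-fold between the libraries labelled KO and WT, where 15.0% of 16439 genes were. *Nos3* was −0.37 (−0.61 to −0.13), and became 0.04 when scaled by the summed endothelial markers, which were 3592 CPM in the library labelled WT and 2708 in the one labelled KO. *Klf4* was 0.01 (−0.04 to 0.05), and the other 4 genes lay between 0.12 and 0.19, *Klf2* at 0.17, which turned to −0.02 with the length trend removed. In muscle none was beyond 2-fold, where 14.9% of 16967 genes were. *Nos3* was 0.47 (0.33 to 0.62), and 0.18 by the endothelial scaling, *Klf10* −0.32 (−0.43 to −0.21), *Klf2* 0.19 (0.14 to 0.24), or −0.11 by the endothelial scaling, and *Klf4* 0.0042 (−0.06 to 0.07).

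**Figure D5:**
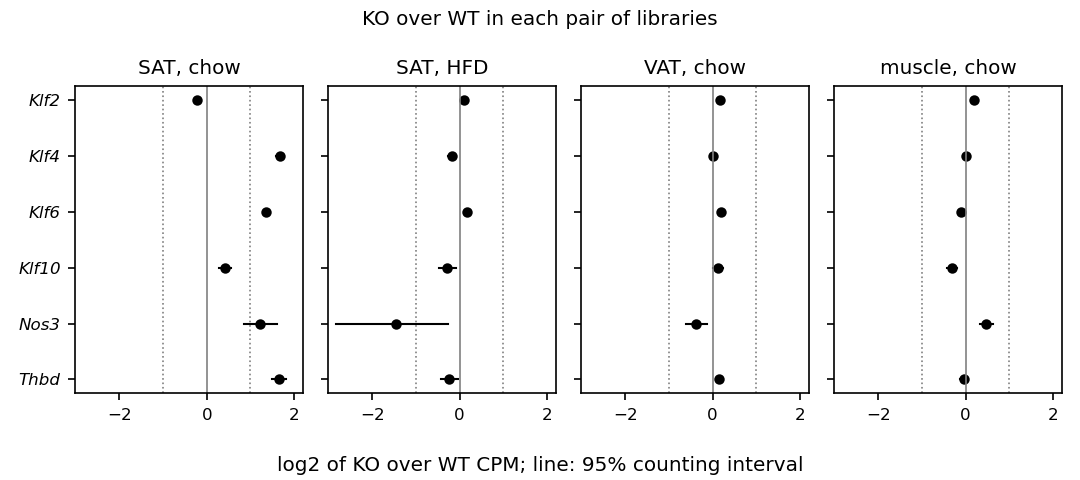
Log2 ratio of KO to WT CPM (x axes) of each of the 6 genes (y axis) in the 4 pairs of libraries, 1 panel each; points are ratios, lines 95% counting intervals (1 library per genotype), and dotted lines mark 2-fold. Only in SAT on chow do *Klf4* (1.67), *Klf6* (1.35), *Nos3* (1.22) and *Thbd* (1.65) lie beyond 2-fold to the right, and *Nos3* in SAT on HFD (−1.45) lies beyond it to the left.

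Across the 4 pairs, with tissue and diet as a block, edgeR's quasi-likelihood test called none of the 6 genes, beside 0.00589% of all genes (1 of 16971, and 279 at an unadjusted p under 0.05), and DESeq2's Wald test, which called 19 genes in all, called none of them either. The log2 effects of KO were 0.39 for *Klf6* (SE 0.31), 0.36 for *Klf4* (SE 0.348), 0.36 for *Thbd* (SE 0.334), 0.08 for *Nos3* (SE 0.447), 0.06 for *Klf2* (SE 0.23) and −0.02 for *Klf10* (SE 0.219), with unadjusted p-values from 0.24 to 0.946 by edgeR. Without the SAT chow pair *Klf4* became −0.05, *Thbd* −0.03, *Nos3* −0.26 and *Klf6* 0.09. Without the VAT pair, whose labels *Tert* does not bear out, they were 0.50, 0.46, 0.25 and 0.48, and none was called. The pairs come from different tissues and diets and are not replicates of 1 condition.

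The genes upstream and downstream of the KLF factors were read from lists compiled from general knowledge. For KO over WT, edgeR called none of the 17 other KLF and SP genes (15 of them tested), 22 genes of flow sensing and signalling, 15 KLF2- or KLF4-induced and 12 repressed genes, 20 genes of eNOS partners and nitric oxide signalling and 11 of the protein C pathway (8 tested). By tissue, 3 of the 22 flow sensing genes were called by edgeR in VAT over SAT on chow, all higher: *Plxnd1*, a junctional force receptor (2.39 on the log2 scale), *Gnaq*, a G protein subunit (2.15), and *Cdh5*, VE-cadherin (2.02). In this contrast 5.05% of all genes were called, and 12 of 19 endothelial markers, *Cdh5* among them, were called higher. Of these markers *Vwf*, *Cldn5*, *Erg*, *Egfl7*, *Ptprb* and *Eng* were not called without the SAT chow WT library. *Plxnd1*, *Gnaq* and *Cdh5* were still called without it. *Cdh5* was called in muscle over SAT on chow too (2.40), and *Kdr*, the VEGF receptor, among the 4 conditions (adjusted p = 0.012). The MEF2 genes *Mef2a*, *Mef2c* and *Mef2d*, named after their values were seen, were called in no contrast, and *Mef2d* ran from 193 CPM in SAT chow WT to 592 in SAT chow KO.

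Of the 15 KLF-induced genes, edgeR called 2 in VAT over SAT on chow, beside 5.05% of all genes. *Hmox1*, heme oxygenase 1, was higher (5.06), and *Itpr3*, an inositol trisphosphate receptor, lower (−1.52). *Hmox1* was not called without the SAT chow WT library (4.21, adjusted p = 0.0503 by edgeR). It stood at 1328 and 1355 CPM in VAT and at 22.0 and 50.4 in SAT on chow. The connexin gene *Gja5* (adjusted p = 0.00798) and *Tek* (adjusted p = 0.0241), both arterial or endothelial genes, were called among the 4 conditions by edgeR; *Gja5* was at 0 in either SAT HFD library and at 15.1 to 36.1 CPM in VAT and muscle.

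All 12 genes that KLF2 or KLF4 are known to repress had a positive difference in VAT over SAT on chow, as did 7994 of all 16971 genes. Their median was 1.74, beside −0.08 over all genes. Of the 12, edgeR called 2, beside 5.05% of all genes: the chemokine *Ccl2* (4.09) and the adhesion molecule *Vcam1* (2.13). Without the SAT chow WT library these differences were 3.12 and 2.06. *Ccl2* was called lower in muscle over VAT (−5.37), and *Edn1*, endothelin 1 (adjusted p = 0.0313), and *Ece1*, its converting enzyme (adjusted p = 0.0429), were called among the 4 conditions by edgeR. The KLF-induced list had a median of 0.95 in VAT over SAT on chow, so that both lists were, in the median, higher in VAT. In this contrast 12 of 12 macrophage and 12 of 19 endothelial markers were called higher by edgeR too. The part of these cells in the 2 lists was not tested.

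Of the partners of eNOS, *Cav1*, the caveolar protein that holds eNOS inactive, was called higher by edgeR in VAT (2.15) and in muscle (2.81) over SAT on chow, and in neither without the SAT chow WT library (1.76, adjusted p = 0.102, and 2.44, adjusted p = 0.0771). It stood at 54.4 and 85.4 CPM in SAT on chow, 23.8 and 9.26 in SAT on HFD, 321 and 305 in VAT and 467 and 520 in muscle. *Arg2*, an arginase, was called among the 4 conditions (adjusted p = 0.0396).

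In the protein C pathway, edgeR called 3 of 8 tested genes in VAT over SAT on chow, beside 5.05% of all genes: *F5*, coagulation factor V (3.55), and *Pros1*, protein S (2.60), were higher, and *F2rl1*, the receptor PAR2, was lower (−2.52). *Pros1* was called without the SAT chow WT library too (2.38 by edgeR), and *F5* (adjusted p = 0.141) and *F2rl1* (adjusted p = 0.0712) were not. *Pros1* was lower again in muscle over VAT (−2.28). Of the 32 immediate early genes, 5 were called in VAT over SAT on chow by edgeR, all higher: *Atf3* (2.95), *Cebpb* (2.22), *Ier3* (2.21), *Cebpd* (2.15) and *Rhob* (1.43), and all 5 were called without the SAT chow WT library too. Their summed level was 10154 and 18455 CPM in SAT on chow, 17651 and 18617 in SAT on HFD, 25499 and 28606 in VAT and 18154 and 17986 in muscle, so that the sum was highest in VAT, as *Klf4*, *Klf6* and *Klf10* were. The heat shock genes of the list went the other way: *Hspa1a* was at 203 and 189 CPM in VAT and *Hspa1b* at 199 and 229, their lowest libraries, and edgeR called both higher in muscle over VAT (2.64 and 3.53). The part of these genes in the KLF levels was not tested.

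Genes with the most similar course over the 8 libraries were taken by Pearson's correlation of log2 CPM, among 10573 genes that average 100 counts or more, as a description: the libraries share tissue, depth and cell makeup. *Nos3* was most like *Cav1* (r = 0.992), *Lmo7* (0.991) and *Pkn3* (0.99). *Thbd* was most like *Rusc2* (0.996), *Jdp2* (0.993) and *Lilrb4a* (0.991), *Klf4* like *Sgms1* (0.993), *Lrp1* (0.988) and *Nav1* (0.985), and *Klf6* like *Nr3c1*, the glucocorticoid receptor (0.99), *Hs3st1* (0.989) and *Nfkbiz* (0.988). *Klf10* was most like *Calm2* (0.991), *Txnrd1* (0.987) and *Ehd1* (0.987), and *Klf2* like the immunoglobulin segment *Ighv1-76* (0.948), *Ahsa2* (0.942) and *4930453N24Rik* (0.927). Over the 7 libraries without SAT chow WT the r of these 18 genes ran from 0.958 to 0.999 and their ranks from 1 to 48, so that the choice of the first 3 rests in part on that library. Spearman's rank correlation was 1 for up to 19 genes and orders no first 3.

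Within the set, *Klf4* and *Klf6* ran most alike (r = 0.955, n = 8 libraries), followed by *Klf10* and *Thbd* (0.938) and *Klf6* and *Thbd* (0.893). Without the SAT chow WT library, *Klf10* and *Thbd* came first (0.972) and *Klf4* and *Klf6* next (0.958). *Klf2* had a negative correlation with each of the other 5, from −0.449 with *Klf6* to −0.879 with *Nos3*, and without that library from −0.678 with *Klf6* to −0.919 with *Klf10*. *Thbd* was thus less like *Klf2* (−0.702) than like *Klf4* (0.882), and *Nos3* less like *Klf2* than like any other gene of the set. These values describe 8 libraries of 4 conditions.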

How the data were processed

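The deposited values are whole-number read counts per Ensembl gene, without normalization, that the authors made from RNAseq of sorted GFP+ cells; per the labels' processing notes, reads were mapped with HISAT2 2.0.5 to GRCm38 (mm10), and the counting program and its use of strand are not given in the sources used here. The labels name a column kit for RNA and the methods Trizol. Samples were grouped by tissue, diet and genotype as labelled, with no replicate numbers. Libraries were scaled with edgeR's TMM (edgeR 4.0.16, R 4.3.3) over the genes that passed a filter of 10 counts in the mean; CPM uses these sizes and TPM the gene lengths in the table. The log2 ratio within a pair has a prior count of 0.5 and an exact conditional binomial (Clopper-Pearson) interval at 95%; there the filter is a mean of 10 counts in the pair. Intervals and the floor of 3 counts cover counting error only.

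Tests were edgeR's quasi-likelihood F tests (robust) in 1 fit with pair and genotype, on all 16971 genes, adjusted by Benjamini-Hochberg at 0.05. Whether libraries came from separate animals is not stated, so p-values measure only the spread between these libraries that the pair and genotype terms leave. The KO and WT library of a condition are not replicates of 1 state. Alternatives were DESeq2 1.42.0, other scalings, filters and prior counts, a length trend over 100 bins and leaving out pairs or libraries. The 6 genes, the lists and the tests were chosen with earlier results of these data known. Named genes are the 6, called list genes or else up to 4 of the highest level per list, the 3 most similar genes each, 5 immediate early genes and *Tert*. Of the lists, *Ccn1* and *Ccn2* were read under their older names.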

Additional observations from a re-analysis of the deposited data

Results flagged for a closer look

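For each of the 6 genes, the KO over WT counting interval lay above 0 in at least 1 pair and below 0 in another, so that the libraries of these pairs moved in opposite directions; with 1 library per genotype, the difference was not tested. The gap between the highest and the lowest such log2 ratio was 2.67 for *Nos3* (SAT on chow, 1.22, against SAT on HFD, −1.45), 1.89 for *Thbd* (1.65 against −0.24, the same pairs) and 1.85 for *Klf4* (1.67 against −0.18, the same pairs). It was 1.45 for *Klf6* (SAT on chow, 1.35, against muscle, −0.10), 0.733 for *Klf10* (0.42 against −0.32, the same pairs) and 0.421 for *Klf2* (muscle, 0.19, against SAT on chow, −0.23), whose 2 signs each turned under another scaling. The sign of *Klf6* in muscle turned with library totals too, and its TPM there was 484 in WT and 515 in KO. The SAT chow pair, in which the WT library stood apart in *Malat1*, is an end of each of these 6 gaps.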

How the results depend on the processing

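Under every planned scaling, filter and tool, and without any 1 pair, none of the 6 genes was called for KO over WT; the number of all genes called was 42 with every gene of at least 1 count, 19 with DESeq2, 0 with no replicate block for the pair of tissue and diet, and 0 to 2 without 1 pair. Without the block, no call of the 6 changed. The KO effect of *Klf10* turned to 0.0075 with DESeq2's size factors, 0.10 with library totals and 0.0079 with DESeq2's test. Without 1 pair the effects ran from −0.0065 to 0.16 for *Klf2*, −0.049 to 0.54 for *Klf4*, −0.15 to 0.072 for *Klf10*, −0.26 to 0.43 for *Nos3* and −0.032 to 0.57 for *Thbd*.

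For any difference among the 4 conditions, 5 of the 6 genes were called with every gene tested, 6 by DESeq2, 5 with no genotype term and 1 to 6 without 1 library, and 3302, 3339 and 510 to 3896 genes of all were called with every gene tested, by DESeq2 and without 1 library. In VAT over SAT on chow 3 were called with every gene tested, 4 by DESeq2 and 0 to 5 without 1 library, beside 2100, 2305 and 93 to 3449 of all genes. In muscle over SAT on chow these counts were 2, 2 and 0 to 4, beside 971, 1058 and 37 to 1761 of all genes, in muscle over VAT 1, 1 and 0 to 3, beside 1159, 1258 and 41 to 1207, and in SAT on HFD over SAT on chow 1 (*Nos3*, adjusted p = 0.00287 by edgeR), 1 (*Klf2*, adjusted p = 0.00448 by DESeq2) and 0, beside 317, 260 and 0 to 308. With no genotype term, where 5 of the 6 were called for any difference among the 4 conditions, 1809 of all genes (10.7%) were called. The causes were not tested. *Klf4* in SAT on HFD over SAT on chow turned to 0.11 with DESeq2's size factors, 0.17 with library totals, 0.10 with a filter of 50 counts in the mean and 0.11 by DESeq2, and ran from −0.69 to 0.97 without 1 library; *Thbd* turned to −0.013 with no genotype term and ran from −0.57 to 1.07, and *Klf6* from −0.0069 to 1.20. In muscle over SAT on chow *Klf2* ran from −0.31 to 0.13 and *Klf4* from −0.37 to 1.29 without 1 library.

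Of 180 values of the 6 genes by tissue and diet under planned settings with all libraries, 150 kept direction and side of the threshold, 25 passed it and 5 turned. Within pairs, scaling by the summed endothelial markers left 2 of the 6 genes beyond 2-fold in SAT on chow; with library totals the share of higher genes among those beyond 2-fold rose there from 57.5% to 69.4%, and in muscle from 58.7% to 69.5%, and with endothelial scaling it was 39.8%, 36.6% and, in VAT, 78.8% in place of 54.6%. Limits are 1 library per genotype and condition, 10 to 15 counts of *Nos3* in SAT on HFD, a SAT chow WT library unlike the others, VAT labels that *Tert* does not show, and sorted cells that hold blood and stromal transcripts.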
